A study of Danio rerio with 2 samples.

Results

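Chromosomes 16 and 19 of the zebrafish are a duplicated pair: the whole-genome duplication at the root of the teleost fishes left 2 hoxa clusters, one on each of them. The accessible regions studied here are the ATAC-seq peaks listed on these 2 chromosomes, chosen by chromosome name alone, leaving out the 0.5 Mb of chromosome 16 that follow position 20 Mb. They numbered 6473 of the 63335 regions of the melanoma cell line zcrest 1 (10.2%) and 3783 of the 53132 regions of the line zcrest 2 (7.12%). Of the regions of zcrest 1, 2699 lay on chromosome 16 and 3774 on chromosome 19, and of those of zcrest 2, 1306 and 2477. The interval left out held 36 regions of zcrest 1 and 34 of zcrest 2.

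ATAC-seq marks DNA that a transposase can reach, mostly promoters and enhancers free of nucleosomes, and a peak is a place where inserted reads pile up above their surroundings. After a genome duplication the copies of a chromosome lose, keep or divide their genes and regulatory elements independently, so that paired chromosomes of today share only part of their gene order. ATAC-seq reads come from all copies of a chromosome in the cells, so more copies and more open copies cannot be told apart from peak lists alone, and no copy number was measured here.

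The 2 lines are described as independent, and each gave 1 library of 50000 cells. Both are labelled with p53, BRAF and Na (an abbreviation not expanded here), the reporter crestin:EGFP, which marks neural crest cells, and the empty form of MiniCoopR, the vector that carries mitfa to restore melanocytes. Both had been kept for more than 20 passages. With a single library per line no difference between the lines can be tested, and every interval given below is an exact (Clopper-Pearson) 95% binomial interval that covers counting error only. Positions are in the build Zv9, counted from 1. Genes are left unnamed and the cell type label was not checked against marker genes, since the annotation of Zv9 was not used here.

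Chromosome 16 was the one with fewest regions for its length in zcrest 2, and chromosome 19 the one with most in zcrest 1. On chromosome 16, 46.3 regions per Mb were listed in zcrest 1, rank 12 of the 25 numbered chromosomes, and 22.4 per Mb in zcrest 2, rank 25. Chromosomes 15 and 4 were close to it in zcrest 2, at 22.7 and 23.4 per Mb. On chromosome 19 there were 75.1 per Mb in zcrest 1, rank 1, and 49.3 in zcrest 2, rank 4. For every 100 regions of zcrest 1, zcrest 2 had 48.4 on chromosome 16 and 65.6 on chromosome 19, against 86.8 on the other 23 chromosomes. Among those 23, chromosomes 15, 23 and 9 were below chromosome 19, at 55.3, 61.6 and 65.0. The middle distance from one region to the next was 12.7 kb in zcrest 1 and 24.3 kb in zcrest 2 on chromosome 16. On chromosome 19 it was 9.10 kb and 12.6 kb.

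In windows of 2 Mb zcrest 1 had more regions than zcrest 2 all along chromosome 16, and the gap between the lines narrowed unevenly along chromosome 19. On chromosome 16 a window held 53 to 119 regions of zcrest 1 (median 90) and 24 to 62 of zcrest 2 (median 41.5), the window from 20 to 22 Mb being short by the interval left out. For every 100 regions of zcrest 1 its windows had from 36.6 of zcrest 2, between 22 and 24 Mb, to 67.1, between 48 and 50 Mb. On chromosome 19 the windows up to 50 Mb held 107 to 189 regions of zcrest 1 and 44 to 151 of zcrest 2. The fewest, 107 and 44, were in both lines between 16 and 18 Mb. In zcrest 1 the most, 189, were in the first window, from 0 to 2 Mb, and in zcrest 2 the most, 151, were near the other end, from 48 to 50 Mb. So zcrest 1 was far ahead of zcrest 2 at the start of chromosome 19, with 189 regions to 121 and then 159 to 69, and the lines came close at its end, with 156 to 131 and 158 to 151.

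**Figure D1:**
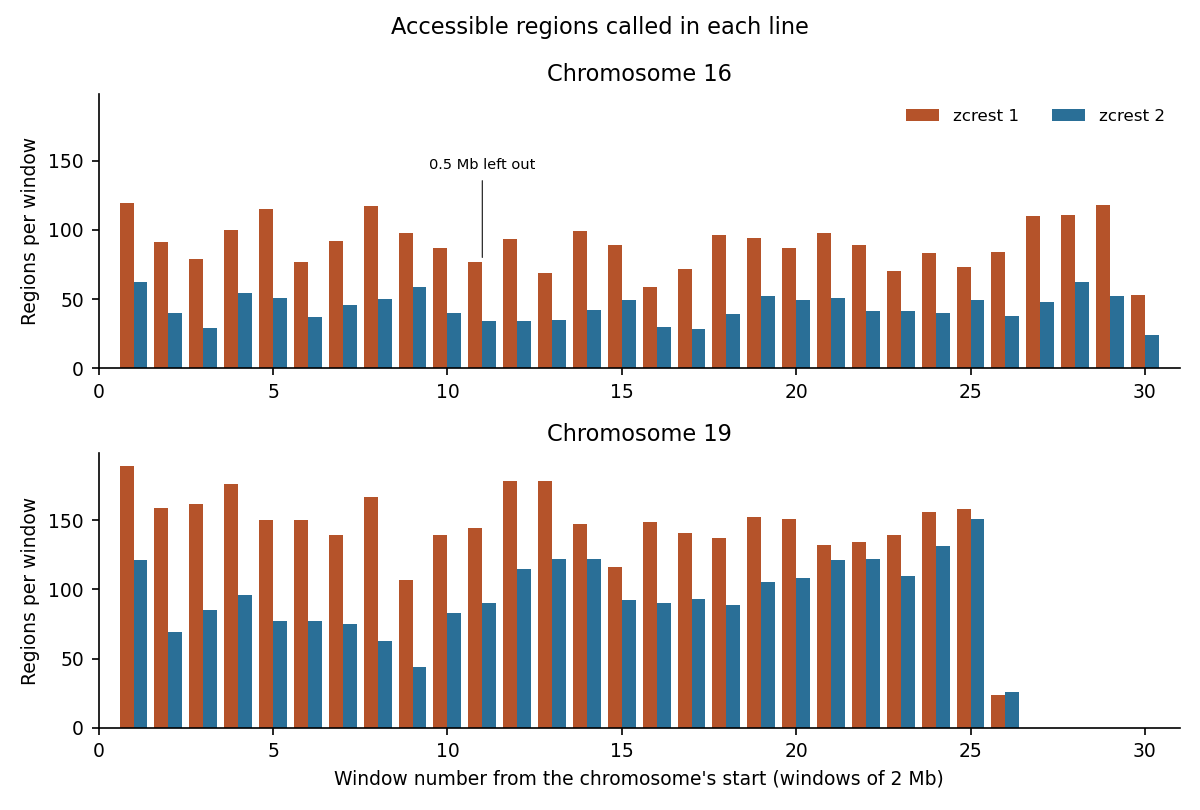
Number of accessible regions (vertical axis) in each 2 Mb window, numbered from the chromosome's start (horizontal axis), for zcrest 1 (brown) and zcrest 2 (blue). On chromosome 16 the zcrest 1 bar is the taller in each window. The blue bars of chromosome 19 are lower in window 9 (44) than in window 1 (121), and rise unevenly from there to window 25. They come near the brown ones late, with 151 against 158 in window 25.

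Most zcrest 2 regions of both chromosomes had a counterpart in zcrest 1, and fewer than 1 in 2 the other way round. On chromosome 16, 1064 of the 1306 zcrest 2 regions were shared, meaning an overlap of 1 bp or more with the zcrest 1 list, which is 81.5% (79.3% to 83.5%). On chromosome 19 it was 1866 of 2477, or 75.3% (73.6% to 77.0%). Over all numbered chromosomes the share was 64.9%. Of the zcrest 1 regions, 1059 of 2699 were shared on chromosome 16, or 39.2% (37.4% to 41.1%), and 1843 of 3774 on chromosome 19, or 48.8% (47.2% to 50.4%). Over all numbered chromosomes that share was 54.7%. Chromosome 16 therefore ranked first of the 25 for the zcrest 2 share and last for the zcrest 1 share. It also had the fewest zcrest 2 regions for every 100 of zcrest 1, at 48.4. With overlaps close to one to one, that number alone keeps its zcrest 1 share near or below 48.4%. Shares and ranks are thus not separate from the counts of regions. With both lists cut at a -log10 q of at least 10, the zcrest 2 share was 86.9% on chromosome 16 and 87.8% on chromosome 19. Where regions were matched one to one, their summits lay as close as elsewhere, with a median distance of 32 bp on chromosome 16, 30 bp on chromosome 19 and 32 bp on the other 23 chromosomes.

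Regions of a single line were those with no region of the other line within 1 kb. In zcrest 1 they numbered 1543 on chromosome 16, or 57.2% of its regions there, and 1793 on chromosome 19, or 47.5%, where 41.6% was the share over all numbered chromosomes. In zcrest 2 they numbered 203 (15.5%) and 520 (21.0%), where the share over all numbered chromosomes was 30.8%. For each zcrest 2 region of this kind there were 7.60 of zcrest 1 on chromosome 16 and 3.45 on chromosome 19, against 1.47 on the other 23 chromosomes. Among those 23, chromosomes 15 and 23 were above chromosome 19, at 4.78 and 3.96. Among regions with a -log10 q of at least 10, chromosomes 16 and 19 came close to each other in this ratio. Chromosome 19 then stood further above the other 23 chromosomes. Such regions of zcrest 1 alone numbered 468 on chromosome 16, or 17.3% of all its regions there, and 427 on chromosome 19, or 11.3%, where the share over all numbered chromosomes was 11.1%. Those of zcrest 2 alone numbered 34 (2.60%) and 32 (1.29%), where that share was 4.06%. The ratio was then 13.8 on chromosome 16, 13.3 on chromosome 19 and 2.94 on the other 23.

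Zcrest 1 regions of a single line outnumbered those of zcrest 2 along the whole of chromosome 16. This held in each of its 30 windows, with 28 to 71 regions of zcrest 1 alone in a window (median 52.5) and 1 to 16 of zcrest 2 alone (median 6). The window from 0 to 2 Mb held the most of both, 71 and 16. The window from 48 to 50 Mb held the fewest of zcrest 1 alone, 28 against 7. On chromosome 19 it held in 25 of 26 windows, all but the last, from 50 Mb on, with 7 and 10. Over all chromosomes it held in 69.5% of the 685 windows with at least 10 matched regions.

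Along chromosome 19 the split changed with position. The 6 windows from 0 to 12 Mb held 82 to 101 regions of zcrest 1 alone and 6 to 31 of zcrest 2 alone. Among the most lopsided were the window from 2 to 4 Mb, where 94 belonged to zcrest 1 and 6 to zcrest 2, and the window from 14 to 16 Mb, with 106 and 8. Between 24 and 30 Mb the numbers came nearer, with 76, 52 and 46 against 22, 29 and 22. They parted again from 30 to 36 Mb, with 69, 61 and 60 against 11, 13 and 11. From 40 to 44 Mb they were 51 and 49 against 45 and 34, and from 46 to 50 Mb they were 65 and 57 against 45 and 45, with 46 against 15 in the window between.

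**Figure D2:**
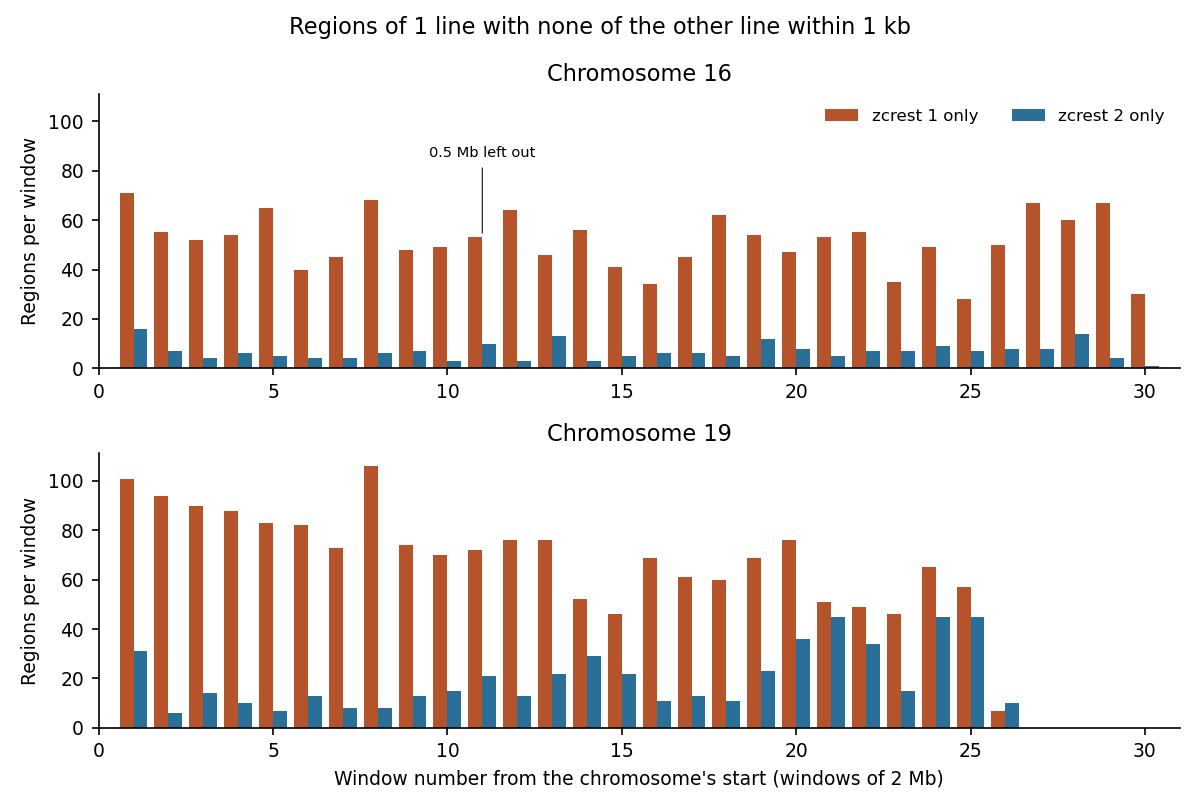
Number of regions with no region of the other line within 1 kb (vertical axis) in each 2 Mb window, numbered from the chromosome's start (horizontal axis), for zcrest 1 alone (brown) and zcrest 2 alone (blue). Blue bars stay at 16 or below on chromosome 16, and reach 45 in windows 21, 24 and 25 of chromosome 19.

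Reads at the summits of matched regions differed in the same places. The number of reads at a summit was recovered from the deposited fold enrichment and -log10 p, and the ratio of zcrest 2 over zcrest 1 was set to 0 on the log2 scale at the median of all 33851 matched pairs of the numbered chromosomes. On chromosome 16 the median log2 ratio was -0.58 (quartiles -0.98 to -0.18, 1039 pairs), a ratio of 0.670. On chromosome 19 it was -0.47 (quartiles -0.92 to -0.01, 1820 pairs), a ratio of 0.721. Pairs above 0, where zcrest 2 exceeded the genome-wide ratio, made up 18.3% on chromosome 16 (190 pairs) and 24.3% on chromosome 19 (442 pairs), and by construction 50% of all pairs lie there. A log2 ratio of -1 or less was found at 24.5% of the pairs on chromosome 16 and 21.4% on chromosome 19, against 8.83% on the other 23, and one of 1 or more at 0.674% and 1.54%, against 6.86%. Setting each line's lowest background equal instead would lower all log2 ratios by the same amount, -0.27. Pairs exist only where both lines had a listed region, so places where zcrest 2 fell below the calling threshold are missing from these ratios.

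The median summit of a matched region on chromosome 16 had 30 reads in zcrest 1 against 19 in zcrest 2, where the genome-wide median was 24 in both. On chromosome 19 it had 35 reads in zcrest 1 and 24 in zcrest 2. A matched region had to be listed in both lines, so these levels do not show which line departed from its usual level. Over all listed regions, matched or not, the zcrest 1 median was 18 reads on chromosome 16 and 22 on chromosome 19, against 18 over the genome. In zcrest 2 it was 17 and 20, against 19. Only regions above the calling threshold are listed, so these medians do not show which line departed either.

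A window was called low at a median log2 ratio of -0.3 or less, which does not show which line departed. Low windows were 29 of the 30 of chromosome 16 and 16 of the 26 of chromosome 19. Over all chromosomes 23.4% of windows were low. At 0.3 or more lay 0 windows of either chromosome, where 19.4% of all windows did. These calls compare medians within 1 library pair and have no replicate check. On chromosome 16 the windows ran from -0.96, between 34 and 36 Mb, to -0.08, between 16 and 18 Mb, and 16 of them were at -0.5 or lower. On chromosome 19 they ran from -1.08, between 16 and 18 Mb, to 0.18 in the last, and 12 were at -0.5 or lower. Over all chromosomes 80 of the 685 windows were at -0.5 or lower.

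On chromosome 16 the difference had no clear inner edge. Its windows were low from 0 to 16 Mb and from 18 to 60 Mb, with the single window between at -0.08. When the ordered pairs were divided where the ratio changed most, with at least 40 pairs on each side and a step of at least 0.3, the only division found was near the start, between summits at 2302397 and 2577655. The 47 pairs before it had a median of -0.28 and the 992 after it -0.59. The region just before, from 2302221 to 2302636, had 10 reads at its summit in zcrest 1 and 15 in zcrest 2, and the region just after, from 2577468 to 2577871, had 80 and 52. Leaving out pairs with under 60 reads in total gave no division, but this could not test the one near the start. Before it lay only 9 pairs with 60 to 99 reads and 1 with 100 or more, fewer than the 40 asked for. The windows of 0.5 Mb on the near side were mixed, at -0.79, -0.16, -0.43, 0.46 and 0.92, the last 2 with only 7 and 3 pairs.

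Within the long stretch of chromosome 16, 1 window of 0.5 Mb with at least 10 pairs had a median log2 ratio above 0. Between 16.5 and 17 Mb the lines had 36 and 35 regions, 27 of them matched, and a median log2 ratio of 0.16, with 16 of the 27 pairs above 0. Above 0 with fewer pairs were also the windows from 31 to 31.5 Mb (0.05, 5 pairs), from 51 to 51.5 Mb (0.03, 2 pairs) and from 55.5 to 56 Mb (0.14, 7 pairs). The neighbours of the window from 16.5 Mb were at -0.63 before it, with 14 regions of zcrest 1 and 7 of zcrest 2, and at -0.40 after it, with 27 and 10. Of all matched regions of chromosome 16 with at least 60 reads in total, the one of highest ratio was in this window. At 16616481 to 16616806 zcrest 1 had 45 reads at the summit, and at 16616457 to 16616817 zcrest 2 had 96, a log2 ratio of 1.01. A zcrest 2 region at 16663610 to 16664109, with 41 reads and no zcrest 1 region within 2.86 kb, was there too, the second strongest of zcrest 2 alone on the chromosome. This window and the matched regions of largest ratio were picked after their values were seen.

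On chromosome 19 the difference had 3 levels, largest in the first stretch and smallest in the last, with ups and downs inside the first and the second. The same division placed edges between summits at 23184323 and 23201719 and between summits at 39356738 and 39384169. The first stretch, up to 23.2 Mb, had a median log2 ratio of -0.77 (quartiles -1.12 to -0.40, 750 pairs), a ratio of 0.587, and only 8.40% of its pairs lay above 0. The second, up to 39.4 Mb, had -0.36 (quartiles -0.79 to 0.04, 614 pairs), with 27.2% above 0. The third, up to 50.2 Mb, had -0.05 (quartiles -0.48 to 0.28, 456 pairs), with 46.5% above 0. The quartiles of the first and the third overlap between -0.48 and -0.40 alone, and those of neighbouring stretches overlap widely. The stretches were chosen on these ratios, so the steps are a description with no test.

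The density of zcrest 2 regions was higher from stretch to stretch, while that of zcrest 1 differed little. Zcrest 1 had 1802, 1180 and 792 regions in the 3 stretches of 23.2, 16.2 and 10.9 Mb, or 77.7, 72.9 and 72.8 per Mb. Zcrest 2 had 958, 814 and 705, or 41.3, 50.3 and 64.8 per Mb. For every 100 regions of zcrest 1 that is 53.2, 69.0 and 89.0 of zcrest 2. Shared regions were 42.1%, 52.5% and 58.7% of the zcrest 1 list and 81.1%, 76.8% and 65.8% of the zcrest 2 list. There were 983, 513 and 297 regions of zcrest 1 alone and 152, 159 and 209 of zcrest 2 alone, or 6.47, 3.23 and 1.42 of the former for each of the latter. The third stretch thus came close to the other 23 chromosomes, at 1.47, and the first to chromosome 16, at 7.60. Per matched summit, zcrest 1 had a median of 40, 34 and 27.5 reads and zcrest 2 of 22, 25 and 26. Over all listed regions the medians were nearly level, at 22, 23 and 20 reads in zcrest 1 and 20, 21 and 20 in zcrest 2. Which regions are matched changes between the stretches, as the shared percentages show. The share of pairs with a log2 ratio of -1 or less was 32.8%, 17.1% and 8.33%.

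The edges were not sharp at 0.5 Mb. Around the first edge the windows of 0.5 Mb from 22 to 24.5 Mb were at -0.43, -0.67, -0.52, -0.22 and -0.13. On its near side the region at 23184138 to 23184488 had 42 reads in zcrest 1 and 15 in zcrest 2, and on its far side the one at 23201530 to 23201989 had 50 and 43. Around the second edge the windows from 38 to 40.5 Mb were at -0.08, -0.40, -0.36, 0.27 and 0.00. The region at 39356381 to 39356965 had 87 reads in zcrest 1 and 20 in zcrest 2, and the next, at 39384032 to 39384517, had 16 and 25. With pairs of at least 60 reads in total the first edge moved to 20.3 Mb and the second to 38.1 Mb.

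The second stretch was not level. Its windows of 2 Mb stood at -0.16 and -0.21 from 24 to 28 Mb and fell to -0.46 and -0.67 from 28 to 32 Mb. They came back through -0.50 and -0.39 to -0.22 at 36 to 38 Mb. The window from 38 to 40 Mb, at -0.13, crosses the second edge. Its parts of 0.5 Mb were at -0.08, -0.40, -0.36 and 0.27. At the bottom of the dip, between 30.5 and 31 Mb, the median log2 ratio of 18 pairs was -1.18. Of these pairs 0 lay above 0. In that window 24 regions of zcrest 1 alone stood beside 1 of zcrest 2 alone. The matched region at 30808591 to 30809470, with 126 reads in zcrest 1 and 17 in zcrest 2, lay in it and was among the 3 of lowest ratio on the chromosome. In the first stretch the ratio was also lowest away from the chromosome's end, at -0.997, -0.97 and -1.08 from 12 to 18 Mb, against -0.74 and -0.82 from 0 to 4 Mb.

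The level of local background moved with the reads at the summits. The local background is the read density that the peak caller found around a region, the region's own reads included. At matched regions its log2 ratio between the lines, again with the genome-wide median at 0, was -0.59 on chromosome 16. In the 3 stretches of chromosome 19 it was -0.94, -0.43 and -0.07. The fold enrichment of the summit over this background, with 1 added to each before dividing, was nearer to level. Its log2 ratio was -0.02, -0.03 and -0.05 in the 3 stretches, and -0.11 on chromosome 16, the lowest of the 25 chromosomes. In the 2 Mb windows of chromosome 16 it ran from -0.61, between 32 and 34 Mb, to 0.06, between 16 and 18 Mb. At matched regions of the first stretch the median enrichment was 7.17-fold in zcrest 1 and 5.93-fold in zcrest 2, and over the genome it was 6.99-fold and 5.98-fold. By fold enrichment neither chromosome had a division. The added 1 weighs more on the low background than on the summit reads, and the ratio without it was not computed. How much of the background consists of a region's own reads was not tested.

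Over all regions of a line the background had the same order. Its median over all zcrest 1 regions was 3.76, 3.22 and 3.01 reads in the 3 stretches of chromosome 19, and over all zcrest 2 regions 2.72, 3.20 and 3.92. It was 2.1 reads in zcrest 1 and 2.01 in zcrest 2 on chromosome 16, where 2.01 is the lowest value zcrest 2 can have. In zcrest 2, 52.2% of the regions of chromosome 16 stood at that lowest value, against 19.3% on the other 23 chromosomes. Chromosome 16 was not alone in this, with 53.6% on chromosome 15, 47.4% on chromosome 4 and 42.8% on chromosome 3. The share at the lowest value of zcrest 1 was 24.5% on chromosome 16, against 23.4%. The background ratio of chromosome 16 is therefore cut off from below, and the ratio of fold enrichment there rests on the same background.

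**Figure D3:**
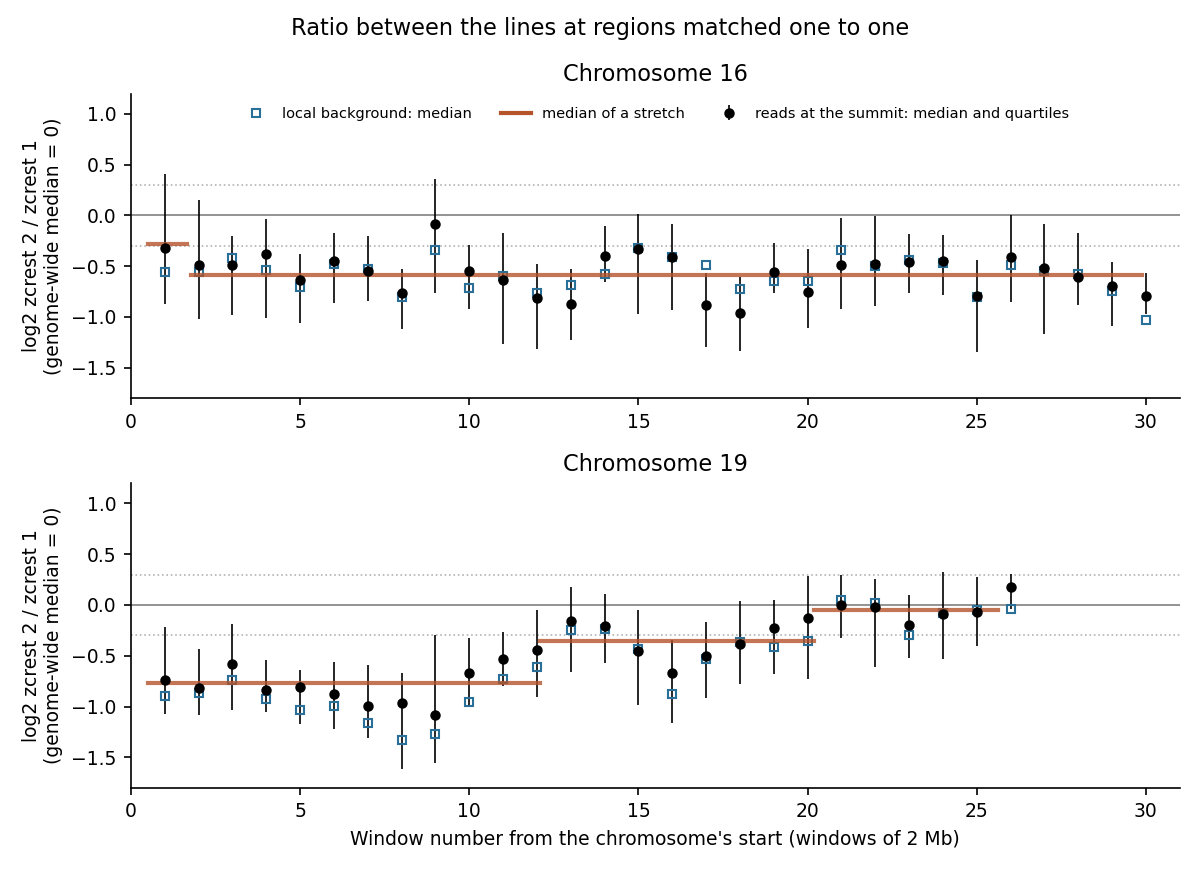
Median log2 ratio of zcrest 2 over zcrest 1 at matched regions (vertical axis) in each 2 Mb window, numbered from the chromosome's start (horizontal axis): reads at the summit with their quartiles (black), local background (open blue squares) and the median of each stretch (brown lines). Dotted lines mark -0.3 and 0.3. The points of chromosome 16 scatter about its long stretch at -0.59, and chromosome 19 steps from -0.77 to -0.36 to -0.05. In its first stretch the squares lie below the black points, at -1.33 against -0.97 in window 8, and later they lie on both sides.

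The lower sharing of zcrest 1 regions was also seen among regions of like strength in zcrest 1, but narrowed among stronger ones. Among zcrest 1 regions with 15 to 24 reads at the summit, 33.3% (30.2% to 36.6%) of 840 on chromosome 16 overlapped zcrest 2. In the first stretch of chromosome 19 it was 26.6% (22.99% to 30.4%) of 568, in the second 39.9% (34.7% to 45.3%) of 343, and in the third 54.0% (47.2% to 60.6%) of 228. On the other 23 chromosomes it was 55.4% (54.7% to 56.1%) of 18291. The interval of the third stretch held the value of the other chromosomes, and those of chromosome 16 and the first and second stretches lay below it. The stretches were cut on read ratios of the same 2 libraries, so their order here is not independent of that choice. Neighbouring regions of 1 library are not replicates. At 40 to 79 reads, chromosome 16 was at 82.8% (78.4% to 86.6%) and the second stretch at 81.6% (76.1% to 86.4%). Both intervals held the 85.5% of the other 23 chromosomes. The first stretch, at 77.6% (72.8% to 81.8%), still lay below.

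In zcrest 2 the order was turned round. Of its regions with 15 to 24 reads, 84.5% (81.2% to 87.5%) of 524 on chromosome 16 had a counterpart in zcrest 1. In the 3 stretches of chromosome 19 it was 81.8%, 72.7% and 55.6%, of 324, 282 and 275 regions. On the other 23 chromosomes it was 60.7% (60.01% to 61.5%) of 17736. The interval of the third stretch, 49.6% to 61.6%, held that value. Among regions with 25 to 39 reads chromosome 16 no longer led. It was at 91.6%, the 3 stretches at 93.9%, 94.2% and 85.0%, and the other 23 chromosomes at 83.4%.

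Regions of the highest class of summit reads were mostly shared, here and elsewhere. A -log10 q of at least 10 is a looser cut. There zcrest 1 had 773 shared regions on chromosome 16 beside 468 of zcrest 1 alone. On the other 23 chromosomes these were 19520 and 6138. With 80 reads or more at the summit, 39 of 41 zcrest 1 regions on chromosome 16 and 194 of 209 on chromosome 19 overlapped zcrest 2, or 95.1% (83.5% to 99.4%) and 92.8% (88.4% to 95.9%), and on the other 23 chromosomes 91.3% (89.4% to 93.0%) did. Of zcrest 2 regions of that strength, 29 of 31 on chromosome 16 (93.5%, 78.6% to 99.2%) and 63 of 63 on chromosome 19 overlapped zcrest 1. On the other 23 chromosomes 95.5% did, within the interval of chromosome 16. Pairs strong by the sum of both lines, a different set, also carried the read difference. Among pairs with 100 reads or more in total, and with the genome-wide median of such pairs at 0, the median log2 ratio was -0.49 on chromosome 16 (102 pairs). It was -0.81, -0.49 and -0.16 in the 3 stretches of chromosome 19 (176, 126 and 97 pairs).

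**Figure D4:**
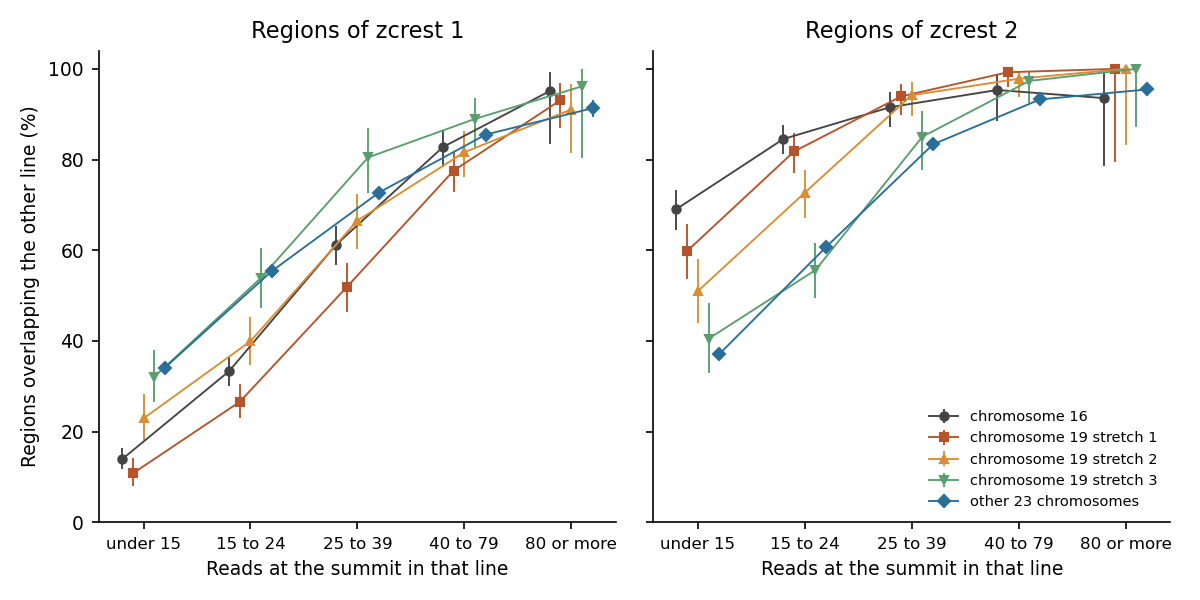
Share of regions overlapping the other line, in percent (vertical axis), by the reads at the summit in the region's own line (horizontal axis), for chromosome 16, the 3 stretches of chromosome 19 and the other 23 chromosomes. Bars are exact 95% binomial intervals. The third stretch (green) runs close to the other chromosomes (blue) at 15 to 24 reads, 54.0% and 55.4% in zcrest 1, while chromosome 16 (33.3%) and the first stretch (26.6%) lie below.

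Ranked by -log10 q, the strongest region of chromosome 16 was the same in both lines, and that of chromosome 19 was not. The region at 28154472 to 28156019 had 219 reads at its summit in zcrest 1 and, at 28154472 to 28156015, 216 in zcrest 2, with an 8.66-fold and a 7.50-fold enrichment. Its local background was 10.9 and 9.63 times the line's median, which includes its own reads. The next of zcrest 1 were at 52537089 to 52538113, with 121 reads against 91 in zcrest 2, and at 18910511 to 18911300, with 110 against 81. The next of zcrest 2 stood close together, at 3798618 to 3799002 with 138 reads against 113 in zcrest 1 and at 3796724 to 3797520 with 124 against 102. All 5 of these regions of chromosome 16 ranked within the first 15 of the chromosome in the other line.

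On chromosome 19 the leading regions of zcrest 1 lay in the first stretch and those of zcrest 2 in the other stretches. The strongest of zcrest 1 was at 15269598 to 15270181, with 159 reads at the summit and a 13.9-fold enrichment. Its counterpart in zcrest 2 had 31 reads, a 7.62-fold enrichment and rank 609 on the chromosome. The region at 14249986 to 14250888 had 153 reads in zcrest 1 and 29 in zcrest 2, where it ranked 607, and the one at 22098018 to 22098868 had 156 and 97, rank 32. In zcrest 2 the strongest were at 27933943 to 27934999, 47502661 to 47503586 and 41391014 to 41392050, with 111, 112 and 123 reads. Their counterparts in zcrest 1 had 95, 87 and 102 reads and ranked 50, 99 and 91.

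Regions of zcrest 1 alone reached higher reads on chromosome 19 than on chromosome 16. The strongest on chromosome 19 were at 48057452 to 48058081, 19094141 to 19094938 and 10130833 to 10131712, with 91, 103 and 99 reads, and the nearest zcrest 2 region lay 9.62, 13.6 and 1.44 kb away. The first of them lay in the third stretch, where the matched regions of the lines were level. Those of chromosome 16 were at 20946897 to 20947438, 51382140 to 51382823 and 6924587 to 6925135, with 75, 73 and 66 reads. The nearest zcrest 2 region was 56.0, 73.9 and 7.11 kb away. Zcrest 2 alone had weaker ones. On chromosome 19 they were at 36239508 to 36240347, 20875956 to 20876978 and 30301956 to 30302480, with 60, 57 and 61 reads. On chromosome 16 the strongest, at 51979564 to 51980274, had 48 reads, and the third, at 43082250 to 43082800, had 34.

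Regions of zcrest 1 alone stood in unbroken rows more on chromosome 16 than on chromosome 19. On chromosome 16 there were 101 rows of 5 or more consecutive zcrest 1 regions without a zcrest 2 region within 1 kb of any of them, 19 of them of 10 or more. On chromosome 19, with more regions, there were 76 and 5. Rows of 5 or more held 26.6% of the zcrest 1 regions of chromosome 16 and 12.3% of those of chromosome 19, against 10.1% on the other 23 chromosomes. A larger share of regions of zcrest 1 alone gives more rows by itself, and chromosome 4, with 54.7% of its regions of zcrest 1 alone, had 26.6% in such rows. In zcrest 2 there was 1 row of 5 or more on chromosome 16 and 5 on chromosome 19, and 0 of 10 or more on either. Rows of 5 or more held 0.38% and 1.09% of the zcrest 2 regions there, against 4.49% on the other 23 chromosomes. Over all 25 chromosomes zcrest 2 had only 23 rows of 10 or more. The longest row on chromosome 16 held 17 regions over 226.5 kb, from 53975270 to 54201761, with 9 to 35 reads at their summits, and 1 zcrest 2 region lay between them. On chromosome 19 the longest held 11 regions from 3628725 to 3761865, with 10 to 47 reads and 0 regions of zcrest 2 between them. That of zcrest 2 was 7 regions on chromosome 19, from 46690024 to 46750105 in the third stretch, with 11 to 17 reads.

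The longest stretches without any region were longer in zcrest 2. On chromosome 16 zcrest 2 had none from 31848639 to 32319014, or 470.4 kb, in which zcrest 1 had 8. On chromosome 19 it had none from 16230878 to 16559487, or 328.6 kb, in which zcrest 1 had 11, inside the window of lowest ratio. In zcrest 1 the longest were 306.6 kb on chromosome 16, from 43940243 to 44246891, with 0 regions of zcrest 2, and 136.3 kb on chromosome 19, from 28053420 to 28189702, with 4.

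Region width showed little of this. The median width was 399 bp in zcrest 1 and 379 bp in zcrest 2 on chromosome 16, 405 bp and 392 bp on chromosome 19, and 396 bp and 387 bp on the other 23. Shared regions of zcrest 1 were wider here than elsewhere, with medians of 514 and 515 bp on chromosomes 16 and 19 against 465 bp. They were also stronger, with medians of 30 and 35 reads at the summit against 23. Shared regions of zcrest 2 were narrower on chromosome 16, with 408 bp against 462 bp on the other 23 and 445 bp on chromosome 19. Their median reads were 18, against 24 and 24. Width at like strength was not tested.

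Among the 25 chromosomes, 16 had the lowest median log2 ratio and 19 the third lowest, with chromosome 23 between them at -0.48. Both chromosomes of the pair thus lay below 0. In the other duplicated pairs that carry hox clusters and were set beside them, the copies lay on opposite sides: chromosome 3 at -0.18 and chromosome 12 at 0.54, and chromosome 11 at 0.28 and chromosome 23 at -0.48. No test was made of this, and 3 pairs are few. The windows of chromosome 16 spread less (SD 0.20, rank 18 of 25 from the most spread) than those of chromosome 19 (SD 0.36, rank 7). By the same division 13 of the 25 chromosomes had at least 1 inner edge and 12 had none, so an edge such as those of chromosome 19 was common in these libraries.

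**Figure D5:**
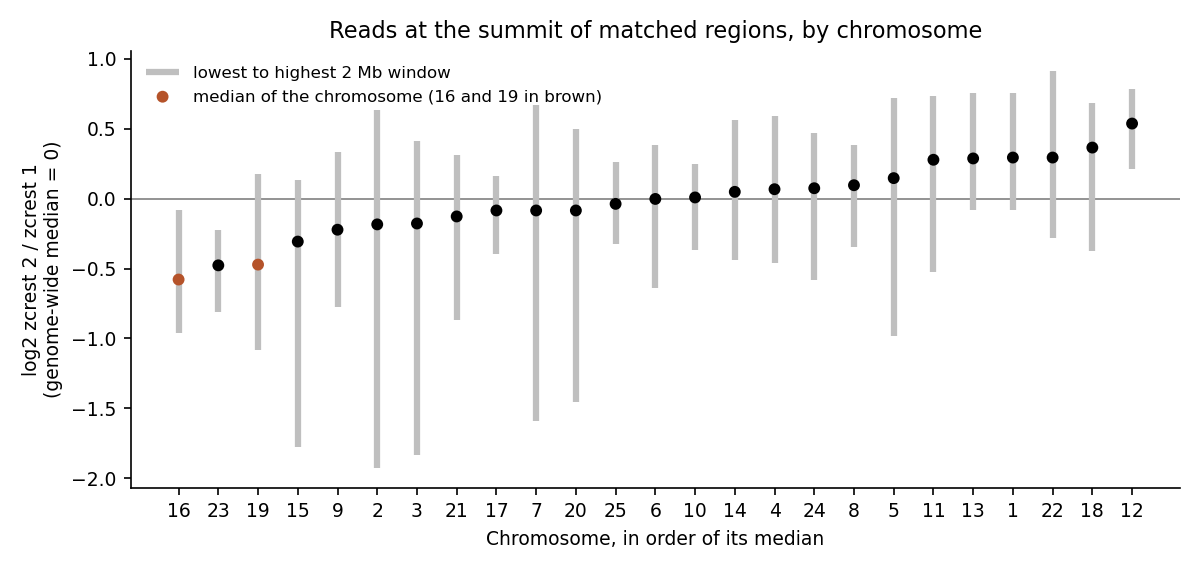
Median log2 ratio of reads at the summit of matched regions, zcrest 2 over zcrest 1 with the genome-wide median at 0 (vertical axis), for the 25 numbered chromosomes in order of that median (horizontal axis). Points are chromosome medians, with 16 and 19 in brown, and grey bars run from the lowest to the highest 2 Mb window. The windows of chromosome 16 run from -0.96 to -0.08 and those of chromosome 19 from -1.08 to 0.18.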

How the data were processed

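ATAC-seq peak lists of zcrest 1 and zcrest 2, 1 library each, were used. The submitters' processing notes name MACS2 2.1.0 and the build Zv9. Peak names show 1 call per library. The sources used here do not give the aligner, duplicate handling, read shift or read totals. Each deposited list gives a score (10 times the -log10 q), a fold enrichment (a ratio of summit pileup plus 1 to local background plus 1), a summit offset, and -log10 values of p and q, all the authors' own values. The lowest -log10 q was 1.31 and 1.32.

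Whole reads at each summit and the local background were solved from the deposited fold and -log10 p, and all peaks met the latter within 0.001. The lowest background, which scales with depth, was 1.57 reads in zcrest 1 and 2.01 in zcrest 2. Peaks were matched one to one by largest mutual overlap and placed in windows by summit. Median ratios used windows of at least 10 pairs. Divisions of the ordered log2 ratios removed most of the sum of squares, with at least 40 pairs a side, a step of at least 0.3 and at most 3 rounds. Named regions were the 3 strongest of each chromosome and line, the 3 strongest of 1 line alone, the longest rows and gaps, the extreme windows and the division edges. The members, measures and windows were chosen with earlier results of these data known, and the 0.5 Mb windows, classes of total reads, densities by stretch, rows on the other chromosomes, pairs of largest ratio and the chromosomes set beside 16 and 19 after the data were seen. Scripts were tested on simulated data (Python 3.11.15, numpy 2.4.6, scipy 1.17.1).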

Additional observations from a re-analysis of the deposited data

How the results depend on the processing

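With 1 library per line no value has a replicate error, and a weak region missing from a list may lie under the calling threshold. Other settings gave 96 values for 19 results, and 47 moved beyond the counting interval, 0.1 on the log2 scale, 2 Mb or a factor of 1.5. No ratio changed sign. Shared percentages are given in the order chromosome 16 zcrest 1, chromosome 19 zcrest 1, chromosome 16 zcrest 2, chromosome 19 zcrest 2. With a 50% reciprocal overlap they were 31.2%, 41.2%, 64.5% and 62.8%. With summits within 100 bp they were 29.7%, 37.2%, 61.4% and 56.7%, and with a peak within 1 kb 42.8%, 52.5%, 84.5% and 79.01%. Restricted to a -log10 q of 5 or more they were 40.3%, 51.9%, 81.3% and 82.1%. At 10 they were 35.6%, 52.9%, 86.9% and 87.8%, and with lists of equal length 44.4%, 57.0%, 77.6% and 70.8%. Regions of a single line, in that order, numbered 1014, 989, 111 and 190 with a -log10 q of 5 or more and 468, 427, 34 and 32 at 10. For zcrest 2 they were 135 and 288 with 5 kb asked for. Scaled by the genome-wide background, which shifts all ratios by -0.27, the median log2 ratios were -0.85 and -0.74. By fold enrichment they were -0.11 and -0.034. Low windows numbered 45 and 33 of 53 and 51 at 1 Mb, 12 and 7 of 12 and 11 at 5 Mb, and 16 on chromosome 16 at a threshold of 0.5. Chromosome 16 had 0 divisions from pairs of at least 60 reads or by fold enrichment, and 2 with 20 pairs a side. With at least 60 reads, too few pairs lay before its division for it to be found. Chromosome 19 had 0 by fold enrichment and 4 at a step of 0.2, and its first edge was at 20.3 Mb with at least 60 reads. The cause of these shifts was not tested.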
